A study of Mus musculus with 12 samples.

Results

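The genes described here are 10 genes of epithelial identity: the transcription factor gene Ovol2, the claudin genes Cldn3, Cldn4 and Cldn7, the keratin genes Krt8, Krt18 and Krt19, the adhesion gene Epcam, and the splicing factor genes Esrp1 and Esrp2. They were chosen by name, with the fall of Ovol2 in the same comparison already known, and all 10 were found by gene symbol among the 24631 genes of the female table and among the 24474 genes of the male table. Because the list was selected on that comparison, the knockout effects of the 10 genes are given as a description, without p-values. Tests are given for related genes outside the list, for the sex difference and for relations between libraries within groups. The related genes were also listed with earlier results of these data known, so their p-values are not independent of that choice.

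Bulk RNA was sequenced from hand-picked mouse pancreatic islets in 4 groups of 3 libraries each: female knockout, female control, male knockout and male control. Knockout mice carried floxed Rnf20 alleles (Rnf20 F/F) and Pdx1 Cre ER, a tamoxifen-activated recombinase driven by the Pdx1 promoter, which is active in beta cells and in some other islet cells. Control mice are labelled Rnf20 Flox Control, and no Cre is named for them, so an effect of the Cre transgene and the loss of Rnf20 cannot be told apart. Tamoxifen was given to the mice of all groups, knockout and control, in 5 gavages of 150 ug/g each, when they were 4 weeks old. The age at harvest is not in the labels, nor is it stated whether libraries stand for separate animals, so the p-values measure the spread between libraries, which may be technical. Values are normalised read counts from 1 table per sex, each scaled on its own, and genes count as called where the limma p-value, adjusted by the Benjamini-Hochberg method over all tested genes, was below 0.05.

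OVOL2 is a zinc-finger repressor that keeps epithelial cells epithelial, in part by holding down Zeb1, whose product in turn represses epithelial genes through E-box motifs. Claudins are the sealing and pore-forming proteins of tight junctions. Keratin 8 and keratin 18 pair into the intermediate filaments of simple epithelia, to which keratin 19 also belongs. Epcam is a surface adhesion molecule that binds and stabilises claudin-7, and the products of Esrp1 and Esrp2 direct epithelial patterns of splicing. In the pancreas, endocrine, duct and acinar cells are all epithelial and share several of these genes, so bulk islet RNA sums over them, and fewer cells of a type and less RNA per cell cannot be told apart.

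Promoter sequence was looked up for the 10 genes, and RefSeq windows of 250 bases before the annotated start (GRCm38.p6, a different build from the GRCm39 coordinates of the gene table) were found for 7 of them, with 2 starts for Cldn7, hence 8 windows. The remaining genes are Krt19, Esrp1 and Esrp2. The windows were searched on both strands for CCGTTA, the core bound by OVOL factors, and for CACCTG, an E-box bound by ZEB and SNAI repressors, and the 2 motifs do not overlap. The OVOL core was in 0 of the 8 windows and in 2.18% of all 32851 promoter windows. The E-box was in 5 of the 8 windows, those of Cldn4, Krt8, Krt18 and Epcam and the second start of Cldn7, and in 17.2% of all windows. A match describes letters only, and no match says nothing about binding elsewhere. The window of Ovol2 is printed because this gene differed most between the groups, and those of Cldn7 (second start), Epcam and Krt8 because they show the E-box in genes with different patterns below. Each reads 5′ to 3′ towards the start, with the E-box on either strand in capitals.
Ovol2 (chr2:144331363-144331612, minus strand): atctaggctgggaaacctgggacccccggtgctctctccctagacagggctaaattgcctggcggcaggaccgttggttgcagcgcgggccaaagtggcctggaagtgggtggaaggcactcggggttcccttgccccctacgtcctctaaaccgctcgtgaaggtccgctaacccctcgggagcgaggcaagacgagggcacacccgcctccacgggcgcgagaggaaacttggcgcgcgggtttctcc
Cldn7 (chr11:69965171-69965420, plus strand): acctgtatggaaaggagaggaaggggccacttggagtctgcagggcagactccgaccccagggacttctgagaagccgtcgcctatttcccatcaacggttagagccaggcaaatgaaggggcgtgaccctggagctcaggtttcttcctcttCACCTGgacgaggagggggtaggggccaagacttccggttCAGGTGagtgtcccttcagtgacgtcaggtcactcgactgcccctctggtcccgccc
Epcam (chr17:87635729-87635978, plus strand): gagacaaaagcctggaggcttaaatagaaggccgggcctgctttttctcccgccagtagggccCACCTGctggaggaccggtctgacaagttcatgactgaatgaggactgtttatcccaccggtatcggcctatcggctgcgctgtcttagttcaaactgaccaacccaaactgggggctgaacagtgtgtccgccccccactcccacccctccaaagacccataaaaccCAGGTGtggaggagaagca
Krt8 (chr15:102004343-102004592, minus strand): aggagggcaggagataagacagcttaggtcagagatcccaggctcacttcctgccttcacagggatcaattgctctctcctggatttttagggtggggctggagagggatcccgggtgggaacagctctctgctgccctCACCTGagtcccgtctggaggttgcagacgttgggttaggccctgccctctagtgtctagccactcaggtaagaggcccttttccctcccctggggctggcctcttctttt

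The E-boxes of Cldn7 began 97 and 57 bases before the second start, those of Epcam 187 and 19 bases before the start, and that of Krt8 111 bases before it. The Ovol2 window, in which 65.2% of bases are G or C, had neither motif.

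The deleted gene was read first, as a check of the labels. Rnf20, which encodes a ubiquitin ligase for histone H2B, had 1877, 2000 and 1927 normalised counts in female knockout libraries, against 3589, 4032 and 4340 in female controls. In males it had 1519, 1373 and 1436 in knockout libraries, against 3812, 3409 and 4058 in controls. All knockout libraries were below all controls of their sex (log2 fold change -1.04 in females and -1.38 in males). The islet identity of the libraries was checked on 9 endocrine markers, which held 14.7% ± 0.335 of reads in female knockout libraries and 18.8% ± 1.97 in female controls, and 16.2% ± 2.48 in male knockout libraries and 21.3% ± 2.59 in male controls (SD, n = 3 each). Libraries had 19759712 to 56086810 assigned reads. Male control 2 was the shallowest, with reads for 17701 genes where the other 11 libraries had 22287 or more. It stayed in all comparisons.

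Ovol2 had the largest knockout effect of the 10 genes in both sexes. It had 359, 480 and 185 normalised counts in female knockout libraries, against 2216, 2065 and 1211 in female controls. In males it had 287, 120 and 176 in knockout libraries, against 654, 1794 and 766 in controls. The groups did not overlap in either sex, the highest knockout library of each sex lying below the lowest control. The log2 fold change, knockout over control, was -2.48 ± 0.39 in females and -2.40 ± 0.43 in males (standard error, 3 libraries per group), so that the knockout level lay 5.56 times below the control level in females and 5.28 times below it in males. Male controls spread most, by 2.74 times between their lowest and highest library.

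The effect on the claudins was largest for Cldn7, the partner of Epcam, then Cldn3, and smallest for Cldn4. Cldn7 had 2747, 2788 and 1925 normalised counts in female knockout libraries, against 8194, 7924 and 6754 in female controls. It had 2175, 2215 and 2879 in male knockout libraries, against 8862, 10580 and 10181 in male controls. Its groups lay far apart in both sexes, with log2 fold changes of -1.63 ± 0.16 in females and -2.03 ± 0.14 in males. Cldn3, a sealing claudin, had 847, 950 and 829 normalised counts in female knockout libraries, against 2219, 1914 and 1749 in female controls. In males it had 1183, 1612 and 1300 in knockout libraries, against 3263, 1643 and 1829 in controls. The male groups of Cldn3 almost met, and the log2 fold changes were -1.16 ± 0.12 in females and -0.66 ± 0.25 in males.

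Cldn4, a claudin linked to paracellular ion selectivity, lies beside Cldn3 on chromosome 5 (chr5:134973973-134975788 and chr5:135015068-135016326, GRCm39). It had 7473, 8058 and 6736 normalised counts in female knockout libraries, against 12555, 10419 and 11864 in female controls, without overlap and with a log2 fold change of -0.65 ± 0.11. In males it had 10380, 11768 and 8146 in knockout libraries, against 21304, 10263 and 6539 in controls. The male control libraries enclosed all 3 male knockout libraries, and the log2 fold change was -0.17 ± 0.40.

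The keratins of simple epithelia differed between the groups in females, with the exception of Krt19, and spread widely among male libraries. Krt8 had 13862, 14627 and 13540 normalised counts in female knockout libraries, against 29987, 19651 and 23432 in female controls (log2 fold change -0.78 ± 0.15). Its partner Krt18 had 11102, 10905 and 10206 in female knockout libraries, against 22817, 17218 and 18360 in female controls (-0.85 ± 0.12). Neither overlapped between the female groups. In males, Krt8 had 21566, 31676 and 16968 in knockout libraries, against 46524, 19872 and 11872 in controls, and Krt18 had 11628, 16778 and 7983 in knockout libraries, against 28962, 15464 and 10030 in controls. The male groups overlapped for both, with log2 fold changes of 0.03 ± 0.51 for Krt8 and -0.51 ± 0.42 for Krt18.

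Krt19, the keratin most used as a duct marker, showed no separation in either sex. It had 1977, 1107 and 1169 normalised counts in female knockout libraries, against 1833, 922 and 1926 in female controls. In males it had 1295, 2385 and 396 in knockout libraries, against 3061, 697 and 230 in controls, a range of 13.3 times within the male controls alone. The log2 fold changes were -0.12 ± 0.35 in females and 0.44 ± 1.22 in males.

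Epcam, which carries the name of epithelial cell adhesion, had the steadiest control levels of the list. It had 8953, 6189 and 5815 normalised counts in female knockout libraries, against 13322, 13295 and 13020 in female controls. In males it had 5497, 4187 and 7734 in knockout libraries, against 11702, 12165 and 12221 in controls. The groups did not overlap in either sex, and the log2 fold changes were -0.95 ± 0.16 in females and -1.10 ± 0.20 in males. The coefficient of variation of Epcam was 24.5% among female knockout libraries and 1.27% among female controls, and 30.9% among male knockout libraries and 2.36% among male controls.

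The splicing factors parted from each other. Esrp1 had 5250, 6057 and 4970 normalised counts in female knockout libraries, against 7281, 7097 and 7434 in female controls, and 4304, 4241 and 5024 in male knockout libraries, against 7215, 7860 and 8649 in male controls. Its groups did not overlap, and its log2 fold changes were -0.43 ± 0.10 in females and -0.81 ± 0.13 in males. Esrp2 had 802, 721 and 758 in female knockout libraries, against 856, 891 and 924 in female controls, a small difference without overlap (-0.23 ± 0.10). In males Esrp2 had 1274, 1330 and 921 in knockout libraries, against 813, 1469 and 684 in controls, with overlap and a log2 fold change of 0.31 ± 0.28.

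**Figure D1:**
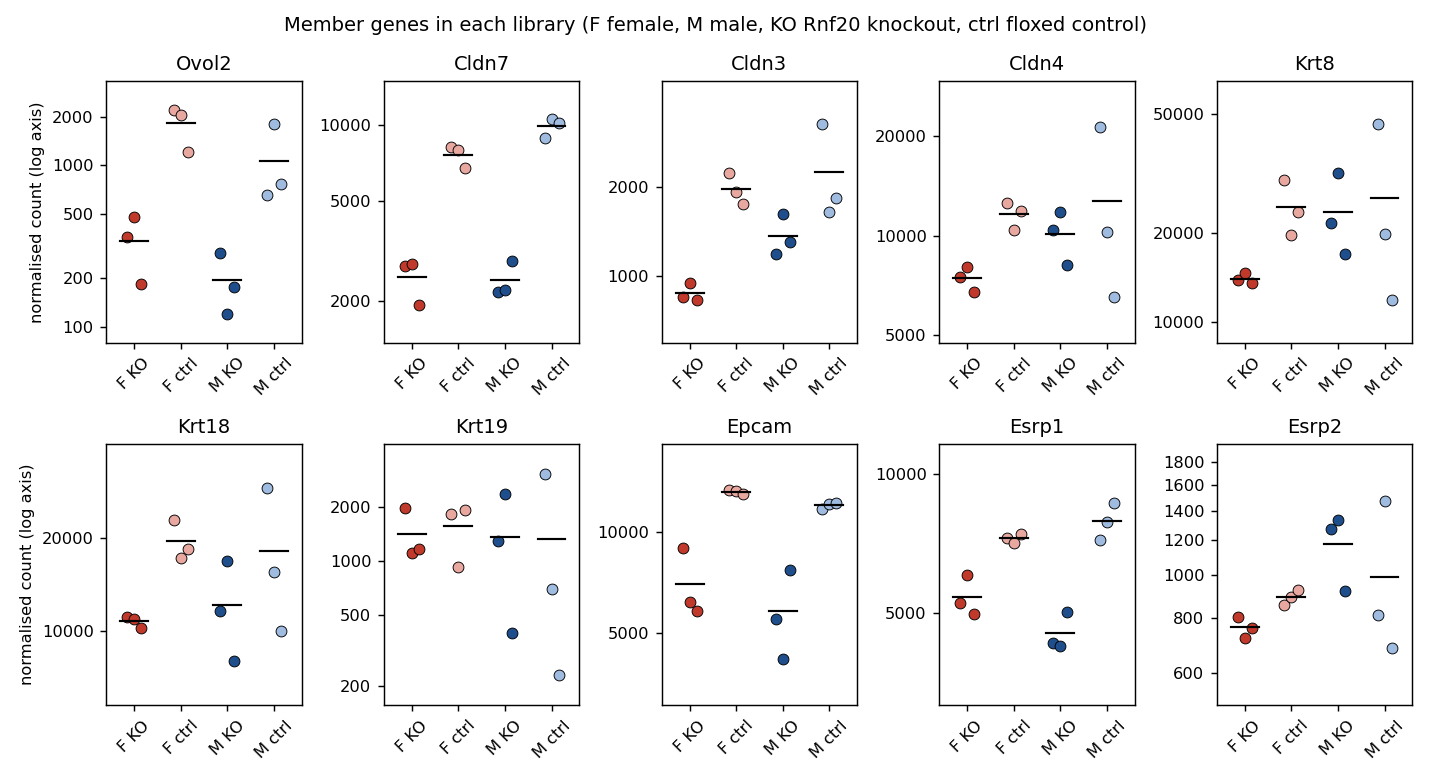
Normalised counts (log axis) of the 10 genes in each library, with female knockout, female control, male knockout and male control from left to right in each panel; points are libraries and bars are group means. Ovol2, Cldn7, Epcam and Esrp1 have all knockout libraries below all controls in both sexes, while the male controls of Krt8, Krt18, Krt19 and Cldn4 span the male knockout libraries of Krt8, Krt19 and Cldn4 and reach above those of Krt18.

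In females, 8 of the 10 genes passed the calling threshold, all of them lower in the knockout, where 20.6% of the 18142 tested genes were called and 10.7% were called lower. The female knockout libraries were all below the female controls for 9 of the 10, as for 20.3% of tested genes. In males, 4 of the 10 were called, all lower, where 13.2% of the 18010 tested genes were called and 7.09% were called lower. These 4, Ovol2, Cldn7, Epcam and Esrp1, were also among the female calls, and 5 of the 10 had all male knockout libraries below all male controls, as 16.9% of tested genes had. Since the list was selected on this comparison, nothing is read from these counts. The median log2 fold change of the 10 genes was -0.81 in females and -0.59 in males, beside medians of -0.01 and 0.06 over all tested genes. The count of 8 in females was 7 without female control 2, female knockout 1 or female knockout 3, where Esrp1 dropped below the threshold, and the male count was 4 whichever library was left out.

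**Figure D2:**
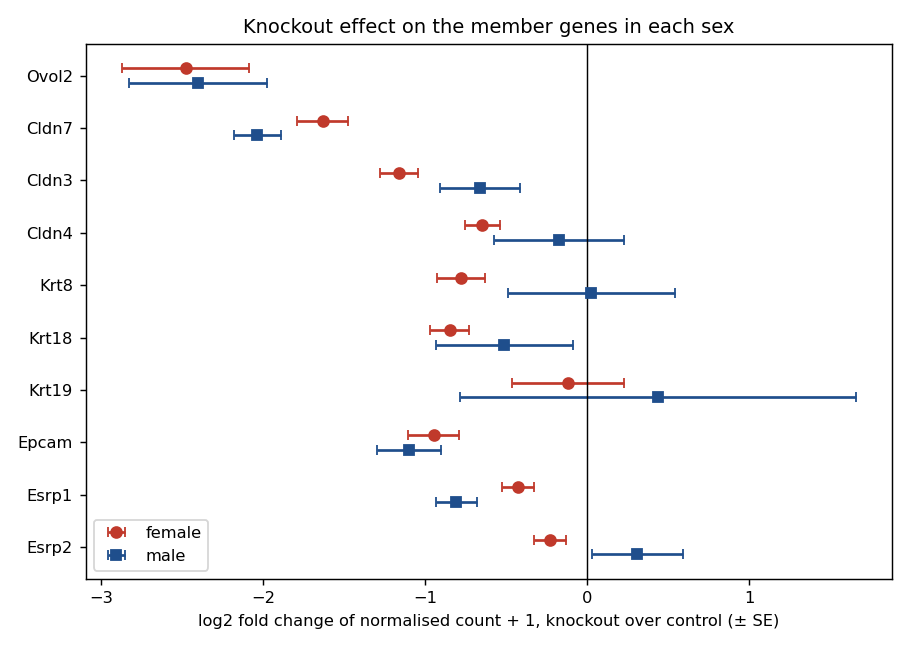
Log2 fold change of the normalised count plus 1, knockout over control, for each of the 10 genes in females (circles) and males (squares); bars are standard errors of the limma estimate from 3 libraries per group. Ovol2 lies near -2.48 and -2.40 and Cldn7 near -1.63 and -2.03, while the male estimates of Krt8, Krt19, Cldn4 and Esrp2 have errors that reach or come close to 0.

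None of the 10 genes had a sex difference in knockout effect that passed the threshold in limma's interaction test over all 12 libraries, in which 19 of 17330 genes, or 0.11%, were called. Of the 10, 1 had an unadjusted p below 0.05, Esrp1, with a difference, male minus female, of -0.38 ± 0.15 (adjusted p = 0.535), and neither edgeR nor DESeq2 on the recovered reads called any. The largest difference was that of Krt8, 0.80 ± 0.56 (adjusted p = 0.741). The errors of Krt8 and of Krt19 (0.55 ± 1.25) leave room for differences in either direction.

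Per kilobase of exon, which makes levels of different genes comparable, the order of the mean control levels put Krt8 and Krt18 on top in both sexes. The third keratin, Krt19, was among the lowest. In female controls the mean level per kilobase was 13546 normalised counts for Krt18, 12439 for Krt8, 6395 for Cldn4, 6019 for Epcam, 3914 for Cldn7 and 1557 for Cldn3. Esrp1 followed at 1153, Ovol2 at 866, Krt19 at 841 and Esrp2 at 205. The ranges of the female control libraries overlapped between Krt18 and Krt8, between Cldn4 and Epcam, and between Ovol2 and Krt19, so those neighbours were not separated. In female knockout libraries the level per kilobase of Ovol2 was 162, close to the 175 of Esrp2, while Krt18 kept 7472 and Krt8 7155. In male knockout libraries Ovol2 was the lowest of the 10 at 91.8 per kilobase, against 507 in male controls.

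The 10 genes did not vary as 1 group among libraries of the same genotype and sex. Each gene's log2 value was set against its own group mean, and these deviations were compared over the 12 libraries with an exact permutation test within groups, two-sided, adjusted over the 45 pairs of members. Krt8 and Krt18, Krt8 and Cldn4, and Krt18 and Cldn4 were the 3 pairs that passed. Krt8 and Krt18 had r = 0.98 and rho = 0.97 (exact p = 0.00154 for each, adjusted p = 0.0231 for r and 0.0347 for rho), and Krt8 and Cldn4 had r = 0.97 and rho = 0.93 (exact p = 0.000772, the smallest that the 1296 permutations can give, adjusted p = 0.0231 for r and 0.0347 for rho). Krt18 and Cldn4 had r = 0.94 and rho = 0.92 (exact p = 0.00154 for r and 0.00231 for rho, adjusted p = 0.0231 for r and 0.0347 for rho). Without the 2 farthest libraries r was 0.96, 0.90 and 0.90 for these pairs. Krt19 had r of 0.92 to 0.96 with the same genes, at adjusted p of 0.0694 to 0.0984 for r. Ovol2 and Cldn7 had r = 0.60 and rho = 0.56 (exact p = 0.0841 for r and 0.116 for rho, adjusted p = 0.315 for r), and Ovol2 and Krt8 had r = -0.21 and rho = -0.24 (exact p = 0.707 for r and 0.532 for rho, adjusted p = 0.795 for r). The r of Ovol2 and Cldn7 was 0.96 within the 6 female libraries and 0.24 within the 6 male libraries. Ovol2 and Cldn3 had r = -0.38 (exact p = 0.420, adjusted p = 0.628), with 0.76 within the female and -0.76 within the male libraries.

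Levels of Krt8, Krt18, Krt19 and Cldn4 were set against those of the summed acinar markers, 17 genes of digestive enzyme and zymogen granule products. Acinar markers held 2.94%, 5.24% and 1.06% of reads in male knockout libraries 1, 2 and 3, against 6.73%, 2.32% and 0.456% in male controls 1, 2 and 3. The male order of Krt8, Krt18, Krt19 and Cldn4 was the same as that of the acinar share within each group, highest in knockout 2 and in control 1 and lowest in knockout 3 and in control 3. In females the acinar share was 1.54%, 2.03% and 2.14% in knockout libraries, against 4.97%, 1.97% and 4.38% in controls. Limma called 0 of the 16 tested acinar markers in females, with 13 at an unadjusted p below 0.05 and 6 with all knockout libraries below all controls, whereas edgeR called 4 and DESeq2 13, all lower in the knockout. In males limma called 0 of the 16, with 0 at an unadjusted p below 0.05, and edgeR and DESeq2 called 0.

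Over the 12 libraries, the within-group deviations of Krt8 and of the acinar sum had r = 0.95 and rho = 0.80 (exact permutation p = 0.0123 for r and 0.0370 for rho). Leaving out the 2 libraries with the most extreme acinar deviations left r = 0.88 for Krt8. The corresponding r was 0.95 for Krt18, 0.93 for Krt19 and 0.92 for Cldn4, with rho of 0.77, 0.84 and 0.83 and exact p of 0.0139, 0.0116 and 0.0116 for r and 0.0448, 0.0100 and 0.0116 for rho. Without the 2 farthest libraries r was 0.87 for Krt18, 0.84 for Krt19 and 0.82 for Cldn4. Within the 6 male libraries r was 0.95 to 0.98 for these 4 genes, and within the 6 female libraries 0.52 to 0.86. Adjusted over the 20 relations computed, 10 genes against the acinar and the duct sum, the p for r of each of the 4 was 0.0556, and for rho 0.116 to 0.224, so these relations did not pass the threshold. Epcam ran the other way, with r = -0.50 and rho = -0.57 (exact p = 0.00540 for r and 0.0625 for rho, adjusted p = 0.0556 for r and 0.250 for rho), and its r was -0.76 without the 2 farthest libraries. Its exact p for r was the smallest of the 20. The r of Esrp1 was farther below 0, at -0.65 with rho = -0.52 (exact p = 0.0679 for r and 0.124 for rho, adjusted p = 0.226 for r). For Esrp1 r was -0.95 within the 6 male libraries and 0.23 within the 6 female libraries. Cldn3 had r = 0.64 and rho = 0.45 (exact p = 0.276 for r and 0.293 for rho, adjusted p = 0.691 for r). Esrp2 had r = 0.42 and rho = 0.39 (exact p = 0.576 for r and 0.372 for rho, adjusted p = 0.960 for r). Ovol2 had r = -0.13 and rho = -0.17 with the acinar sum (exact p = 0.809 for r and 0.650 for rho, adjusted p = 0.990 for r), and Cldn7 had r = -0.46 and rho = -0.45 (exact p = 0.103 for r and 0.132 for rho, adjusted p = 0.295 for r).

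**Figure D3:**
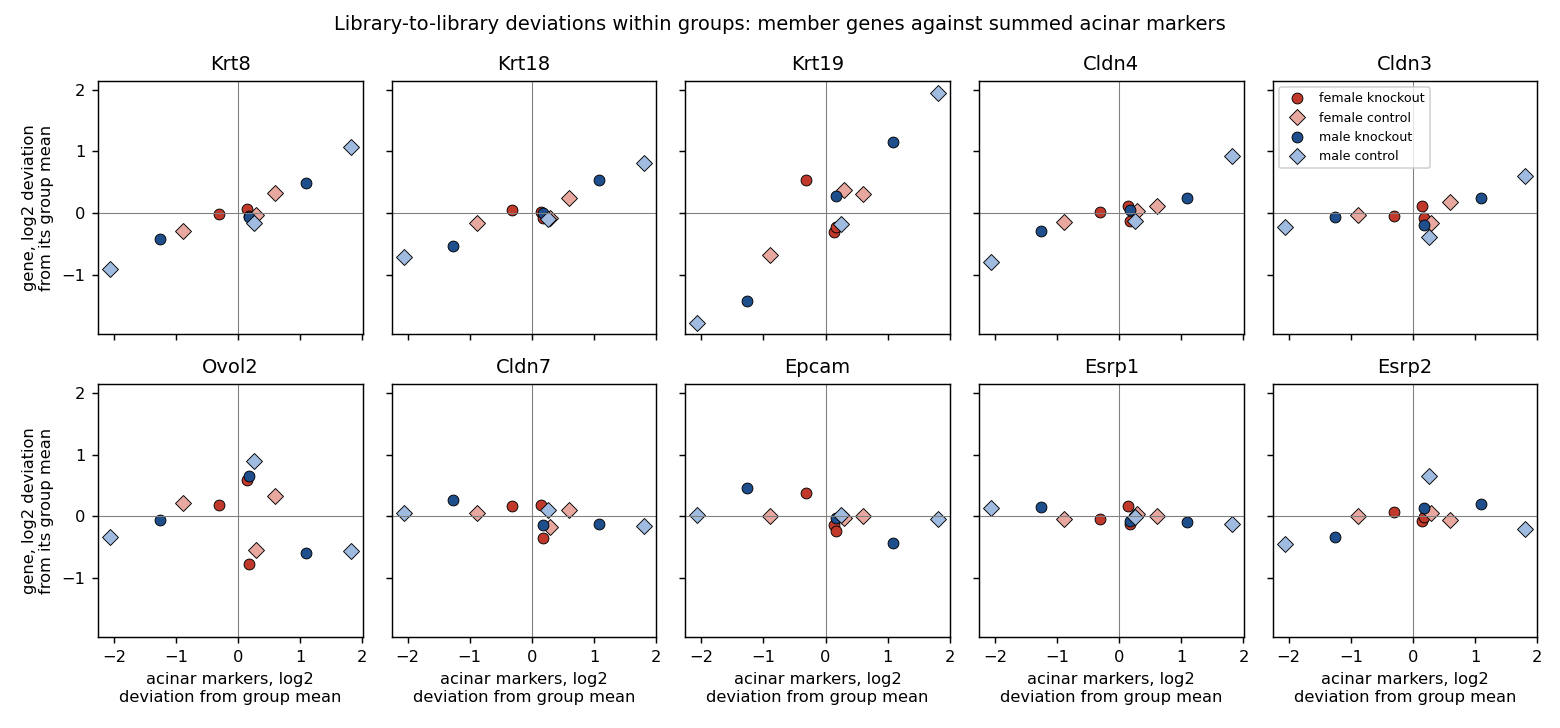
Deviation of each gene from its group mean (log2, vertical) against the deviation of the summed acinar markers (log2, horizontal) in the 12 libraries; circles are knockout and diamonds control libraries, red for females and blue for males. Krt8, Krt18, Krt19 and Cldn4 lie along a rising line with r of 0.92 to 0.95 (adjusted p = 0.0556 by the exact permutation test), and Ovol2 (r = -0.13) does not.

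With the acinar level of each library added to the model, a setting chosen after the data had been seen, 3 of the 10 genes were called in females (Cldn7, Cldn3 and Epcam) and 5 in males (Ovol2, Cldn7, Epcam, Esrp1 and Krt18). The log2 fold change of Ovol2 was then -2.69 in females and -2.39 in males, and that of Cldn7 -1.73 in females and -2.01 in males, close to the values without it. That of Krt8 was -0.42 in females where it had been -0.78, and those of Krt18 and Cldn4 were -0.65 and -0.48 where they had been -0.85 and -0.65. In this setting 1136 genes were called in females instead of 3745, so that lost calls came with a smaller count throughout. Female controls 1 and 3 held 4.97% and 4.38% of reads in acinar markers, and no female knockout library more than 2.14%. Acinar level and genotype thus partly moved together in the female fit, which cannot fully separate them. In males Krt18 had -0.62 where it had been -0.51.

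Duct cells, for which Krt19 is a marker, were followed with 13 markers. The within-group deviations of Krt19 and of the duct sum had r = 0.26 and rho = 0.41 (exact permutation p = 0.427 for r, adjusted p = 0.855). No gene of the 10 had a lower adjusted p for r with the duct sum. For Epcam this r was 0.93 within the 6 female libraries and -0.79 within the 6 male libraries. The duct sum was 0.131% to 0.204% of reads in female knockout libraries and 0.131% to 0.150% in female controls, and 0.0888% to 0.121% in male knockout libraries and 0.135% to 0.165% in male controls. Of the 13, limma called 1 in each sex, Ambp, higher in the knockout, where Sox9, Spp1, Cftr and Krt7 were not called in either. Spp1, a secreted phosphoprotein of duct cells, had 9487, 19297 and 4841 normalised counts in male knockout libraries, against 19715, 35560 and 37844 in male controls (log2 fold change -1.63 ± 0.53, adjusted p = 0.107). Cftr, the chloride channel of duct cells, had 0 reads in male control 2, and its 44.5, 16.3 and 6.99 in male knockout libraries stood against 111, 0 and 10.1 in male controls. With the duct level in the model, also chosen after the data had been seen, none of the 4 male calls of these genes was left, with 1 gene called in all, while their male log2 fold changes were -2.43 for Ovol2, -2.32 for Cldn7, -0.91 for Esrp1 and -1.78 for Epcam, each at least as far below 0 as without it. All male knockout libraries lay below all male controls in the duct sum, so duct level and genotype moved together in this fit. The sum adds counts, so it leans on markers with many counts, such as Spp1, and no sum without Spp1 was made. The duct level in the model and in the correlations therefore does not weigh the 13 markers alike. Single markers differed, as 8 of the 13 had a positive log2 fold change in males and 5 a negative one. The male knockout libraries were all above the controls for 3 of the 13 and all below them for 1, Spp1. A fall in duct cells is therefore not read from the sum. Of 9 endothelial markers, all 9 had a positive log2 fold change in males and 5 were called higher by limma, and limma called 0 of 9 in females, with 2 at an unadjusted p below 0.05, where edgeR called 0 and DESeq2 1. The part of these other cell types in the results for the 10 genes was not tested beyond these settings.

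Related genes were tested in 8 lists, with 117 genes in all and none of the 10 among them. As these lists too were chosen with earlier results known, their counts and p-values give no independent support. Of these, 105 were tested in females and 28 called, 13 higher and 15 lower, beside the 20.6% of all genes. In males 102 were tested and 24 called, 15 higher and 9 lower, beside 13.2%. Over all tested genes, 1796 of 18142 were called higher and 1949 lower in females, and 1095 of 18010 higher and 1277 lower in males. The counts of single lists below stand beside these. Of the related genes, 16 were called in both sexes, 6 of them lower in both and 10 higher in both. The female count was 17 without female control 2 or without female knockout 1 and 14 without female knockout 2, and the male count was 11 without male knockout 1. It was 10 in females with the acinar level in the model and 0 in males with the duct level.

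Zeb1, the repressor that OVOL2 holds down in other epithelia, was higher in the knockout in both sexes. It had 1747, 1735 and 1986 normalised counts in female knockout libraries, against 1096, 1445 and 1385 in female controls, and 1774, 1746 and 1920 in male knockout libraries, against 944, 1227 and 913 in male controls. The groups did not overlap, and the log2 fold changes were 0.49 ± 0.13 in females (limma adjusted p = 0.0308) and 0.83 ± 0.15 in males (adjusted p = 0.00866). The female call was lost when any of the 3 female knockout libraries was left out and under both marker covariates. Of the other repressors of epithelial genes, Zeb2 was not called in either sex, with -0.12 ± 0.28 in females (limma adjusted p = 0.797) and 0.57 ± 0.22 in males (adjusted p = 0.129). Its male knockout libraries were all above the male controls, while its female groups overlapped. Snai2 was called higher in females at a low level (0.71 ± 0.21, adjusted p = 0.0477), a call lost in 11 of 17 other settings. In males Snai2 had -0.53 ± 0.48 (limma adjusted p = 0.515), with overlap. Its sex difference was -1.24 ± 0.52 (limma unadjusted p = 0.0343, adjusted p = 0.567). Among transcription factors of epithelial cells, 2 of 9 tested were called in females and 3 of 9 in males, all lower. Of all tested genes, 20.6% in females and 13.2% in males were called in either direction. Klf5, a Krüppel-like factor of epithelia, was called in both (-0.70 ± 0.15 in females, adjusted p = 0.0148, and -0.87 ± 0.22 in males, adjusted p = 0.0304), the ETS factors Elf3 and Ehf in males, and Grhl3 in females. Elf3 had -0.61 ± 0.19 in females (limma adjusted p = 0.0599), without overlap between the groups. Neither ETS factor had a sex difference past the threshold (limma adjusted p = 0.839 for Elf3 and 0.521 for Ehf). Grhl3 was low, at 11.3 to 21.7 normalised counts in female knockout libraries and 38.0 to 43.2 in female controls, and DESeq2 did not call it. Grhl2, which acts with OVOL2 on epithelial genes in other tissues, was low, at 25.4 to 101 normalised counts in female knockout libraries and 41.4 to 76.0 in female controls. In males it had 54.4, 55.3 and 25.3 in knockout libraries, against 75.0, 0 and 6.46 in controls. Grhl2 was not called in either sex, with -0.17 ± 0.49 in females (limma adjusted p = 0.842) and 2.39 ± 1.41 in males (adjusted p = 0.305).

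Other tight junction and polarity genes moved in both directions, with 1 called higher and 7 lower of 22 tested in females, and 3 higher and 4 lower of 22 in males. Crb3, a Crumbs protein of the apical membrane, had 834, 851 and 708 normalised counts in female knockout libraries, against 2471, 2009 and 1755 in female controls. It fell by 1.37 on the log2 scale in females (limma adjusted p = 0.000932) and by 1.44 in males (adjusted p = 0.00234). Cldn23 and Ildr1 also fell in both sexes, with log2 fold changes of -1.25 and -0.62 in females and -1.43 and -0.89 in males, while Pard3, a scaffold of the apical polarity complex, rose in both (0.75 in females, adjusted p = 0.00273, and 1.24 in males, adjusted p = 0.00321). Cldn12, another claudin, had 1366, 1213 and 1251 normalised counts in male knockout libraries, against 2466, 2856 and 2745 in male controls, and 1874, 2006 and 1975 in female knockout libraries, against 2337, 2291 and 2530 in female controls. The groups did not overlap in either sex. It fell by 1.07 ± 0.13 on the log2 scale in males (limma adjusted p = 0.00190) and had -0.29 ± 0.09 in females (adjusted p = 0.0507). Its sex difference, male minus female, was -0.78 ± 0.13 and missed the threshold in limma (adjusted p = 0.0562), whereas edgeR and DESeq2 called it. Cldn2, a pore-forming claudin, was called higher in males (1.15), a call lost in 10 of 17 other settings. The adherens junction and desmosome genes split likewise, with 4 called higher and 2 lower of 20 in females and 3 higher and 1 lower of 19 in males. Cdh1, which encodes E-cadherin, was not called, with -0.19 ± 0.11 in females (adjusted p = 0.281) and 0.09 ± 0.15 in males (adjusted p = 0.725). Pkp4, Evpl and Afdn, which code for junction and cytolinker proteins, rose in both sexes, the female call of Afdn being lost in 5 of 17 other settings, and Pkp3, a desmosomal plakophilin, fell in both (-0.70 in females, adjusted p = 0.0261, and -0.77 in males, adjusted p = 0.0466), each of its calls lost in 6 of 17 other settings. In females Dsp, the gene of desmoplakin, was called lower (-0.78) and Nectin1, a nectin adhesion gene, higher (0.66), with -0.43 and 0.33 in males, and neither sex difference passed the threshold (limma adjusted p = 0.794 for Dsp and 0.757 for Nectin1).

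Of 10 tested keratins and cytolinkers other than the 3 keratins of the list, limma called 0 in either sex, with 2 at an unadjusted p below 0.05 in each. DESeq2 called Krt10, lower in females, and edgeR called 0. Proteins around Epcam, the membrane proteases that act on it and their inhibitors, were called lower for 3 of 8 in females and 1 of 8 in males, and none was called higher. St14, the protease matriptase, was the gene called in both (-0.81 ± 0.17 in females, limma adjusted p = 0.0133, and -0.83 ± 0.16 in males, adjusted p = 0.00931), and Prss8 and Spint1 were called in females. Spint1, an inhibitor of such proteases, had -0.39 ± 0.10 in females (adjusted p = 0.0244) and -0.53 ± 0.16 in males (adjusted p = 0.0540), without overlap between the groups of either sex. Its female call was lost in 6 of 17 other settings and a male call gained in 7, and its sex difference was -0.15 ± 0.19 (adjusted p = 0.848).

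Among other splicing regulators, 4 were called higher and 1 lower of 15 in females, and 5 higher and 0 lower of 15 in males. Rbm47, which shares epithelial splicing targets with the Esrp proteins, fell in females (-0.48 ± 0.11, limma adjusted p = 0.0158) and had -0.44 ± 0.14 in males (adjusted p = 0.0661). Rbfox3, a neuronal splicing factor, had 292, 314 and 351 normalised counts in female knockout libraries, against 38.3, 46.3 and 48.1 in female controls. It rose by 2.83 ± 0.19 on the log2 scale in females (adjusted p = 0.000269) and by 2.78 ± 0.39 in males (adjusted p = 0.00338), and Rbfox2, Mbnl2 and Celf1 were called higher in both sexes, by 0.35 to 0.86. The female calls of Mbnl2 and Celf1 were each lost in 8 of 17 other settings, the male call of Celf1 in 6 and that of Rbfox2 in 5. Qk, the gene of the RNA-binding protein Quaking, was called higher in males (0.60). Genes of mesenchymal cells were called higher for 2 of 14 in females and 3 of 13 in males, and none lower. Beside these stand the 20.6% of all genes called in females and the 13.2% in males, in either direction. Cdh2, which encodes N-cadherin and is also an adhesion molecule of endocrine cells, rose by 0.72 ± 0.13 in females (adjusted p = 0.00802) and by 1.04 ± 0.13 in males (adjusted p = 0.00213), while Vim, the mesenchymal filament gene, was not called (-0.01 ± 0.27 in females, adjusted p = 0.988, and 0.20 ± 0.22 in males, adjusted p = 0.599). Col1a1 was called higher in females, and Pdgfrb and Sparc in males, calls that were lost in 9, 5 and 12 of 17 other settings.

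**Figure D4:**
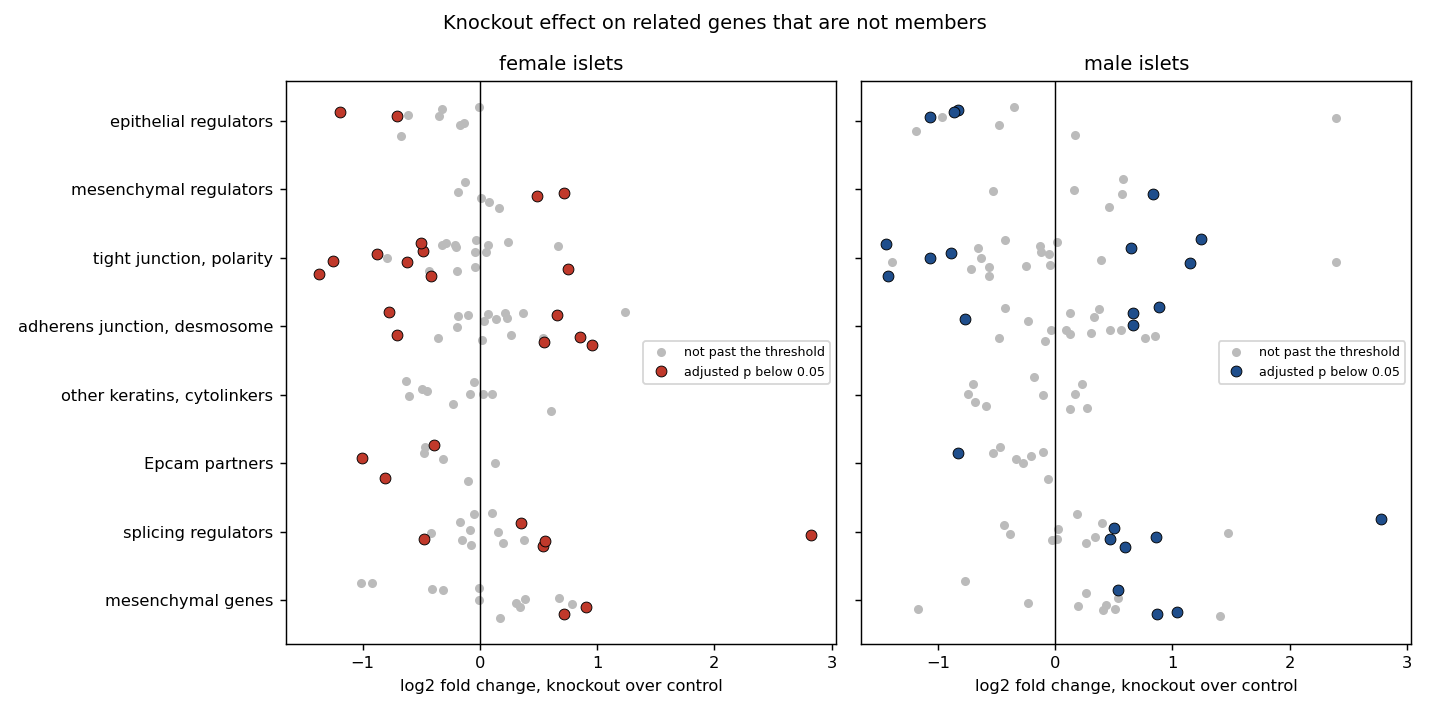
Log2 fold change, knockout over control, of each tested related gene in females (left) and males (right), by list; coloured points are genes with an adjusted p below 0.05 and grey points are the others. The called epithelial regulators and Epcam partners lie below 0 in both sexes, the called mesenchymal genes above 0, and tight junction and desmosome genes on both sides. Called in females were 2 of 9 epithelial regulators, 3 of 8 Epcam partners and 2 of 14 mesenchymal genes, beside 20.6% of all genes. In males they were 3 of 9, 1 of 8 and 3 of 13, beside 13.2%.

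Genes most like Ovol2 over the 12 libraries were sought among 13596 genes with a mean of at least 50 normalised counts in both tables, on log2 values centred within each sex. The 5 with the highest r were Btbd10 (0.973), Brinp2 (0.973), Syt17 (0.972), Nus1 (0.969) and Gm13033 (0.968), and as these values keep the difference between the genotypes, they describe a shared step as much as shared variation. Cldn7 had r = 0.937 with Ovol2, place 68 among these genes, Epcam 0.880, place 520, and Krt19 -0.15, place 7549. Rnf20, the deleted gene, had r = 0.878 with Ovol2, place 541. The 5 most like the mean of the other 9 genes were Wdsub1 (0.957), Cd24a (0.935), Prss8 (0.933), Gtf3c6 (0.930) and Gclc (0.930). Ovol2 itself had r = 0.688 with that mean, place 1110 among 13588 genes, and Rnf20 0.707, place 905.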

How the data were processed

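Bulk RNA of mouse islets had been sequenced in 12 libraries, 3 per sex and genotype as labelled. Per the submitters' processing notes, reads were handled with FastQC 0.11.9, Trim Galore 0.6.7, STAR 2.7.3a and featureCounts, with the build GRCm39 (mm39); the strand setting is not given in the sources used here. The signal values deposited by the authors are DESeq2-normalised counts (reads over a library's size factor), tabulated apart for each sex, and whole reads were recovered from 100.0% of them within 0.001. The tables list genes with a sum of 10 or more reads.

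Log2 of the normalised count plus 1 was fitted by limma-trend (limma 3.58.1 in R 4.3.3, robust) per sex for genes with a mean of at least 10, and over 12 libraries for the interaction of sex and genotype. Each adjusted p of a gene in a genotype or sex comparison comes from this fit. The design's test for normalised values was kept; edgeR 4.0.16 and DESeq2 1.42.0 were run on the recovered reads as alternatives, besides other pseudocounts, filters, scalings, a replicate block, single libraries left out and, added later, acinar or duct level as a covariate. The fit was tested on simulated counts with the same small dispersion for every gene. That test does not cover genes that spread widely, such as Krt19, with a coefficient of variation of 114% in male controls. Correlations used deviations from group means, with permutations within groups.

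The 10 genes and all related and marker lists were chosen with earlier results of these data known. Named among related genes were called genes with a mean of at least 50, at most 6 per list by size of change, fixed genes (Cdh1, Vim, Zeb1, Zeb2, Grhl2, Rbm47 and 5 duct markers) and the 5 genes most alike; Grhl3, Krt10 and Ambp were named after their values were seen, and 1 of the fixed genes is not reported here. Exon lengths came from GENCODE M21 and served only for levels per kilobase. Coordinates of genes are those of the tables; promoter windows are from RefSeq.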

Additional observations from a re-analysis of the deposited data

How the results depend on the processing

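The count of called genes, 3745 in females and 2372 in males, was 1847 to 3760 in females and 814 to 2298 in males with 1 library left out, lowest without female knockout 2 and without male knockout 1, and also low without female control 2 (2069), female knockout 1 (2421) and male control 3 (1414). With the acinar level as a covariate it was 1136 in females, and with the duct level 1 in males. Of the 10 genes, 7 to 8 were called in females and 4 in males with 1 library left out, 3 in females with the acinar level and 0 in males with the duct level. Of the related genes, 14 to 22 were called in females and 11 to 23 in males with 1 library left out, 10 in females with the acinar level and 0 in males with the duct level. The 19 genes with a sex difference were 240 by DESeq2, 29 with a mean of at least 50, 38 with quantile scaling, 0 with either covariate, and 0 to 53 with 1 library left out (53 without male control 1, 0 without male control 3, male knockout 1 or 3, female control 2 or any female knockout). With the replicate number as a block there were 0. Same-numbered libraries correlated by -0.28 to 0.15 in their deviations, so the numbers do not pair them, and the block left 8 of the 10 genes called in females and 4 in males. The cause of these changes was not tested, except that leaving out libraries and adding a covariate leave fewer residual degrees of freedom. No log2 fold change of a gene chosen for naming that was called in its sex reversed its sign under the 17 alternatives run for it, while other genes of the lists were not followed in this way. In males, that of Krt8 ran between -0.43 without control 3 and 0.56 without control 1, that of Cldn4 between -0.57 and 0.29, that of Krt19 between -0.45 and 1.41, and that of Krt18 between -0.87 and -0.10, in the same order. That of Cldn3 was -0.36 without control 1, and that of Esrp2 was 0.64 without control 2 and 0.09 without control 3. Cftr and Grhl2 had 0 reads in male control 2, where 1 read equals 2.00 normalised counts. With 3 libraries a group, the exact test over libraries has few orderings.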

Other observations

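Ratios of neighbouring genes within a library, chosen after their values had been seen and given without a test, differed from their levels in how they varied. The ratio of Krt8 to Krt18 normalised counts, not corrected for length, was 1.85, 1.89 and 2.13 in male knockout libraries, against 1.61, 1.29 and 1.18 in male controls, without overlap, although the levels of both keratins overlapped between these groups. In females it was 1.25, 1.34 and 1.33 in knockout libraries, against 1.31, 1.14 and 1.28 in controls, with overlap. The ratio of Cldn4 to Cldn3 was 8.83, 8.48 and 8.12 in female knockout libraries, against 5.66, 5.44 and 6.78 in female controls, and 8.77, 7.30 and 6.26 in male knockout libraries, against 6.53, 6.25 and 3.57 in male controls. The female groups of this ratio did not overlap and the male ones did.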
